A study of Mus musculus with 8 samples.

Results

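Sumo2, Sumo3, Sae1, Uba2, Pias1, Pias2, Pias3 and Pias4 encode much of the enzyme route that attaches SUMO to proteins, and their RNA was followed in mouse embryonic stem cells given an inhibitor of that route. The 8 genes were chosen by name as parts of this route, and all 8 were found among the 36920 genes of the count table by matching Ensembl identifiers to symbols. The cells are R1, an established mouse embryonic stem cell line; the medium held serum and LIF, the cytokine that supports self-renewal. RNA sequencing gave 8 libraries in 4 groups of 2, named by day. D1 is labelled control, D3 is labelled ML-792 and follows the first 48 h exposure, D8 is labelled control and comes after the interval without inhibitor, and D10 is labelled ML-792 and follows the second 48 h exposure. The dose is given in the labels as 2.5 mM, all groups share the line and the medium, and no genetic change is labelled. No untreated culture of D3 or D10 is among the samples, so exposure and days in culture cannot be told apart within either exposure, and D8 is a control that had already been through the first exposure. Nothing in the labels tells if both libraries of a group come from separate cultures. The p-values therefore measure the spread between these libraries alone, which may be technical.

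SUMO is a small protein that is joined to lysines of other proteins and changes what they bind. It is first activated by the E1 enzyme, a pair of subunits made from Sae1 and Uba2, of which Uba2 carries the catalytic cysteine. It is then passed to an E2 enzyme and placed on many targets with the help of E3 ligases, among which the PIAS proteins are the best known family. ML-792 is a small molecule that blocks the E1 protein. In mouse embryonic stem cells SUMO is known for its part in keeping silent chromatin and the genes of the early 2-cell stage shut.

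The libraries held 21040992 to 40835518 reads in genes. Embryonic stem cell markers identified the cells: 10 of 10 listed genes, Pou5f1, Sox2 and Nanog among them, were above 1 CPM (reads per library scaled to a common total, with TMM factors between libraries) in every library, and their summed level ran from 6211 to 6999 CPM in the control libraries and from 3531 to 4667 CPM in the ML-792 libraries. Of 7 fibroblast markers (fibroblasts are the usual feeder cells) 2 were above 1 CPM in every library, and their sum ran from 9.61 to 19.7 CPM in controls and 5.96 to 11.7 CPM with ML-792, and that of primitive endoderm markers from 144 to 747 CPM and 169 to 565 CPM. Between days these last markers lay at 144 to 218 CPM in D1 and D3 and at 351 to 747 CPM in D8 and D10. The 6 markers of the 2-cell-like state summed to 5.82 to 77.8 CPM in controls and 499 to 2288 CPM with ML-792. Whether these shifts in marker levels take part in the values below was not tested. In such bulk samples, fewer cells of a type and less RNA per cell cannot be told apart. D8 replicate 2 stood apart: the rank correlation between a gene's deviation from its mean over the 8 libraries and its GC content, across 14693 coding genes, was 0.560 there, against -0.349 to 0.116 in the other 7 libraries. The same correlation was -0.328 and -0.309 in D3 and -0.349 and 0.0109 in D10.

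Sequence is shown first because reads of Sumo2 are hard to assign. Of all 50-base windows along Sumo2 transcripts, 19.2% occur in transcripts of 14 other genes as well, most of them processed pseudogenes, that is, copies of the spliced RNA inserted elsewhere in the genome. Below are bases 121 to 210 of the Sumo2 coding sequence and the matching stretch of its paralog Sumo3 and of 2 processed pseudogenes, taken from the GENCODE M21 transcripts (GRCm38, the same build as mm10) and read 5′ to 3′ on each gene's own strand. Sumo2 is on the minus strand at chr11:115530361-115534584 over this stretch, introns included. Sumo3 is on the plus strand at chr10:77609908-77614036, introns included. Smt3h2-ps is on the plus strand at chrX:7752250-7752339, and Gm10241 on the minus strand at chr16:20176803-20176892. Capitals mark bases that differ from Sumo2.
Sumo2: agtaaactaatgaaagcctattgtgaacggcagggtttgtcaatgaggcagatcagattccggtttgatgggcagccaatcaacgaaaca
Sumo3: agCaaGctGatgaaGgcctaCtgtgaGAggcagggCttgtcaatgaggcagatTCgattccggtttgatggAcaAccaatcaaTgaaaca
Smt3h2-ps: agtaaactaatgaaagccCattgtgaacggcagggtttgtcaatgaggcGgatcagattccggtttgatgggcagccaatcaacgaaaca
Gm10241: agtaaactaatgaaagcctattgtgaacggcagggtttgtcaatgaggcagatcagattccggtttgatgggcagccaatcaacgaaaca

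Sumo3 differs from Sumo2 at 13 of these 90 bases and shares no identical run longer than 17 bases with it, so a read of this stretch separates the paralogs. Gm10241 has the same 90 bases as Sumo2, and Smt3h2-ps differs at 2 of them. Reads counted on Gm10241 numbered 12 to 20 per library, against 506 to 886 on Sumo2. Those on Smt3h2-ps numbered 3 in D3 replicate 2 and 144 to 289 in the other libraries. How reads matching several places were counted is not given in the sources used here, so the level of Sumo2 is uncertain by the reads that such settings drop or move. For Sumo3, 8.70% of 50-base windows recur elsewhere, and 346 bases of its exons overlap Gm49325 on the same strand. Shared windows made up 2.34% of Uba2, 0.418% of Pias2 and 0.294% of Pias4, and none were found for Sae1, Pias1 and Pias3. Pias3 overlaps Nudt17, on the opposite strand, by 4 bases.

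The level of each gene was compared per kilobase of exon (CPM per kb), since longer genes gather more reads. Per kilobase of all annotated exons, the E1 subunits stood highest. Sae1 (ENSMUSG00000052833, chr7:16320234-16387806, minus strand) was at 149 ± 14.5 CPM per kb (SD over 8 libraries), which placed it at percentile 98.2 of coding genes. Uba2 (ENSMUSG00000052997, chr7:34140688-34169599, minus strand) was at 111 ± 9.08 CPM per kb, percentile 97.6. The lowest Sae1 library (133) lay above the highest Uba2 library (124). Next came Pias2 (ENSMUSG00000025423, chr18:77065208-77153800, plus strand) at 59.9 ± 10.9 CPM per kb, and Sumo3 (ENSMUSG00000020265, chr10:77606097-77618331, plus strand) at 37.3 ± 3.76 CPM per kb. Their ranges over libraries, 40.7 to 74.6 and 30.4 to 41.9 CPM per kb, overlapped. Sumo2 (ENSMUSG00000020738, chr11:115523102-115536276, minus strand) followed at 12.5 ± 1.72 CPM per kb and overlapped Pias4 (ENSMUSG00000004934, chr10:81153266-81167923, minus strand), which stood at 9.67 ± 1.96 CPM per kb. Pias1 (ENSMUSG00000032405, chr9:62878368-62987924, minus strand) at 5.23 ± 0.393 CPM per kb and Pias3 (ENSMUSG00000028101, chr3:96696384-96706070, plus strand) at 4.06 ± 0.710 CPM per kb were lowest and overlapped each other. Both lay near the middle of coding genes, at percentiles 53.4 and 48.3. The order depends on the length used. Per kilobase of coding sequence, chosen as an alternative after seeing the data, Sae1 (360 ± 35.0), Uba2 (334 ± 27.4) and Sumo3 (320 ± 32.3) overlapped each other, Pias2 (109) and Sumo2 (76.0) came next with ranges that overlapped, and Pias4, Pias1 and Pias3 were lowest, at 23.1, 16.5 and 8.37 CPM per coding kb.

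All 8 genes passed the filter on low counts and entered every test. Across the 8 libraries the coefficient of variation of the CPM ran from 7.51% for Pias1 to 20.3% for Pias4, below the median of 22.3% over coding genes in each case. The coding genes were not matched to the members for level.

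**Figure D1:**
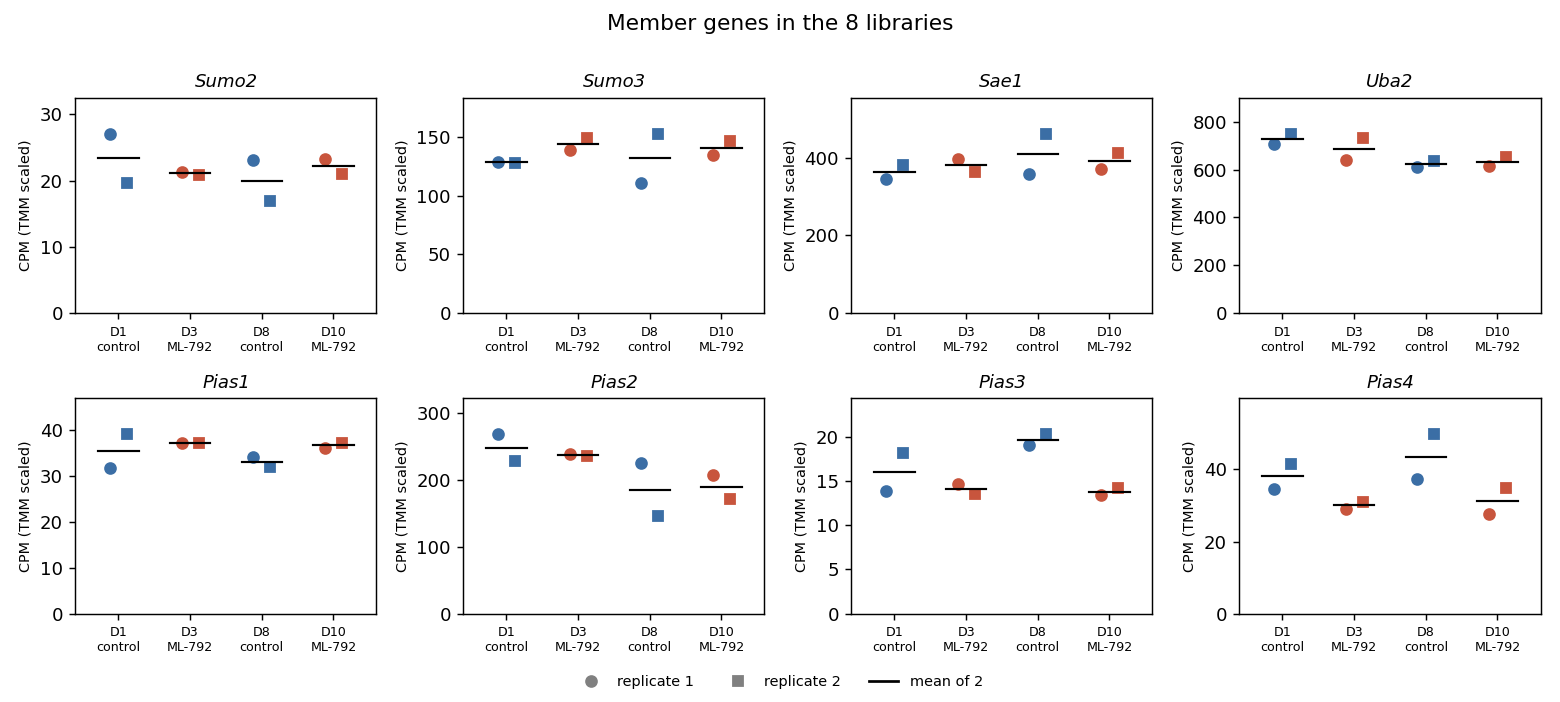
Level of each of the 8 genes in every library, in CPM after TMM scaling (vertical axis, from 0), by group (horizontal axis); circles are replicate 1, squares replicate 2, lines the mean of the 2, blue the control groups and red the ML-792 groups. Pias4 in D3 and D10 lies between 27.7 and 35.0 CPM and in D1 and D8 between 34.5 and 49.7 CPM, with D10 replicate 2 above D1 replicate 1. Sae1 and Uba2 overlap between the states as well.

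The modifiers came first in the comparison of ML-792 with control. Sumo2 measured 27.1 and 19.6 CPM in D1, 21.3 and 20.9 CPM in D3, 23.1 and 16.9 CPM in D8, and 23.2 and 21.1 CPM in D10. The treated libraries lay inside the range of all 4 controls. Its log2 fold change was -0.14 ± 0.21 (SE) for D3 against D1 (adjusted p = 0.710) and 0.15 ± 0.21 for D10 against D8 (adjusted p = 0.677). Sumo3 measured 129 and 128 CPM in D1, 139 and 149 CPM in D3, 111 and 153 CPM in D8, and 135 and 147 CPM in D10. Its D3 libraries were both above its D1 libraries, while D10 lay inside D8. The log2 fold change of Sumo3 was 0.16 ± 0.16 in the first exposure (adjusted p = 0.564) and 0.09 ± 0.16 in the second (adjusted p = 0.743).

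Both subunits of the E1, the enzyme that ML-792 blocks, gave values that overlapped those of the controls. Sae1 measured 345 and 381 CPM in D1, 398 and 364 CPM in D3, 359 and 463 CPM in D8, and 372 and 412 CPM in D10. Uba2 measured 707 and 751 CPM in D1, 641 and 732 CPM in D3, 610 and 634 CPM in D8, and 613 and 653 CPM in D10. Treated and control libraries overlapped in both exposures for both genes. The log2 fold change of Sae1 was 0.07 ± 0.15 for D3 against D1 and -0.07 ± 0.15 for D10 against D8. For Uba2 it was -0.09 ± 0.13 and 0.03 ± 0.13. The 95% interval of the Uba2 fold ran from 0.773 to 1.15 in the first exposure and from 0.835 to 1.24 in the second, and that of the Sae1 fold from 0.824 to 1.34 and from 0.749 to 1.21. These intervals hold for the fit without GC and length correction. With it, Uba2 stood at -0.33 in the first exposure (adjusted p = 0.0714) and -0.28 in the second (adjusted p = 0.120).

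Among the PIAS ligases, Pias1 and Pias2 gave small differences. Pias1 measured 31.8 and 39.2 CPM in D1, 37.3 and 37.4 CPM in D3, 34.3 and 32.1 CPM in D8, and 36.3 and 37.3 CPM in D10, with D10 above D8 without overlap. Pias2 measured 268 and 228 CPM in D1, 239 and 235 CPM in D3, 224 and 146 CPM in D8, and 207 and 171 CPM in D10, and its treated libraries lay inside the controls of the same exposure. The log2 fold change of Pias1 was 0.07 ± 0.15 and 0.15 ± 0.15 in the first and second exposure, that of Pias2 -0.06 ± 0.20 and 0.03 ± 0.20.

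Pias3 and Pias4 were the members with the most negative differences. Pias3 measured 13.9 and 18.1 CPM in D1, 14.7 and 13.5 CPM in D3, 19.1 and 20.3 CPM in D8, and 13.4 and 14.2 CPM in D10. In the second exposure the groups were apart, in the first they overlapped. Its log2 fold change was -0.18 ± 0.18 for D3 against D1 (adjusted p = 0.563) and -0.51 ± 0.18 for D10 against D8 (adjusted p = 0.0899). Pias4 measured 34.5 and 41.6 CPM in D1, 29.0 and 31.0 CPM in D3, 37.4 and 49.7 CPM in D8, and 27.7 and 35.0 CPM in D10. Both treated libraries lay below both controls in each exposure. The log2 fold change of Pias4 was -0.34 ± 0.19 in the first exposure (adjusted p = 0.285) and -0.47 ± 0.19 in the second (adjusted p = 0.127).

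No member passed the test in either exposure, with edgeR's quasi-likelihood test adjusted by Benjamini-Hochberg over all genes. In D3 against D1, 0 of 8 members were called where 13% of the 19173 genes tested were, and in D10 against D8, 0 of 8 where 16.9% were. At an unadjusted p under 0.05, 0 of 8 members passed in the first exposure, where 5380 of the 19173 genes did. In the second, 2 of 8 passed, Pias3 and Pias4, where 6084 of the 19173 genes did. DESeq2 called 0 of 8 members in both, where it called 2871 of the 19173 genes in the first exposure and 3472 in the second. The edgeR test with an added term for the replicate number called Pias3 (adjusted p = 0.0437) and Pias4 (adjusted p = 0.0237) in the second. There 27.6% of all genes were called, and the labels do not say what a replicate number stands for. Without that term, the median size of the log2 fold change over the members was 0.12 in each exposure, against 0.36 and 0.39 over all genes tested. Those genes include many with far fewer reads than the members, so the medians are not matched for level. Groups of 2 did not overlap for 2 of 8 members in the first exposure (Sumo3 higher, Pias4 lower) and for 3 of 8 in the second (Pias1 higher, Pias3 and Pias4 lower), where 64.8% and 54.9% of all genes tested did not.

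Setting all 4 ML-792 libraries against all 4 controls, 1 of 8 members was called, where 28.7% of all genes were. That member was Pias4, lower by 0.41 on the log2 scale with ML-792 (-0.41 ± 0.13, adjusted p = 0.0402), although D10 replicate 2 (35.0 CPM) lay above D1 replicate 1 (34.5 CPM). Pias3 was at -0.36 ± 0.14 (adjusted p = 0.0784). The other 6 members lay between -0.03 and 0.13. The call of Pias4 was lost without D1 replicate 2 (adjusted p = 0.0890), D3 replicate 1 (0.0791), D3 replicate 2 (0.0868), D8 replicate 1 (0.0529) or D10 replicate 1 (0.107). Without D1 replicate 1, Pias3 was called as well (-0.48, adjusted p = 0.0144), and without D8 replicate 1, Pias4 was called for D10 against D8 (-0.66, adjusted p = 0.0401). Without D8 replicate 2, the library that stood apart, Pias4 was at -0.33 over all libraries (adjusted p = 0.0477) and at -0.28 for D10 against D8 (adjusted p = 0.398), and Pias3 at -0.50 for D10 against D8 (adjusted p = 0.195).

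GC content moved with these differences. Pias4 and Pias3 have the most GC-rich transcripts of the 8 genes, at 58.2% and 55.6%, and Sumo2, Pias1 and Pias2 the most GC-poor, at 41.8%, 42.8% and 43.9%. In D8 replicate 2 the deviation from the mean over 8 libraries, in log2 CPM, was 0.50 for Pias4 and 0.37 for Pias3, 0.26 for Sae1 and 0.17 for Sumo3, and -0.34 for Sumo2 and -0.53 for Pias2. When the trend of each library with GC content and length was removed before the fit, Pias4 stood at -0.19 ± 0.08 over all ML-792 libraries and was no longer called (adjusted p = 0.0923), and Pias3 at -0.18 ± 0.11 (adjusted p = 0.237). The same correction placed Sumo2 at -0.44 ± 0.11 (adjusted p = 0.0102), Uba2 at -0.31 ± 0.09 (adjusted p = 0.0179) and Pias2 at -0.35 ± 0.12 (adjusted p = 0.0400). All 3 were called as lower with ML-792, where 39.6% of all genes were called, so 3 of 8 is near the background. In D3 against D1 the correction placed Sumo2 at -0.47 ± 0.15 (adjusted p = 0.0440), where 24.2% of all genes were called. Sae1 and Sumo3 moved little, to -0.02 and 0.09. The correction also moved the median over all genes tested, to -0.12 in each exposure and -0.13 over all libraries, and turned the share of calls that were higher from 60.8% to 39.6% in D3 against D1, from 54.8% to 39.0% in D10 against D8 and from 53.2% to 37.0% over all libraries. It removes a trend that treated libraries share as well as one of single libraries, and these cannot be told apart here. Which members differ between ML-792 and control thus changed with this choice, and no member was called both with and without it.

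**Figure D2:**
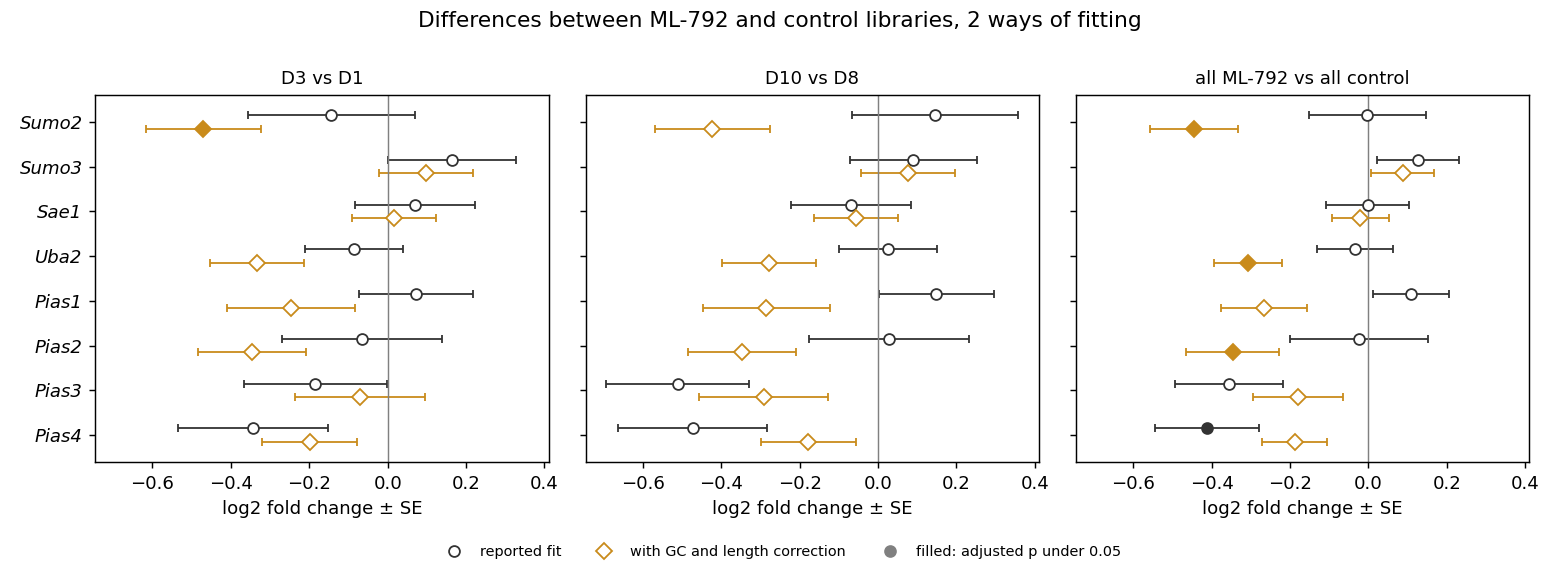
Log2 fold change (horizontal axis, ± SE) of the 8 genes (vertical axis) for D3 against D1, D10 against D8 and all ML-792 against all control libraries; circles are the reported fit, diamonds the fit with GC and length correction, and filled symbols have an adjusted p under 0.05. Over all libraries Pias4 (-0.41) is filled in the reported fit alone, and Sumo2, Uba2 and Pias2 in the corrected fit alone.

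**Figure D3:**
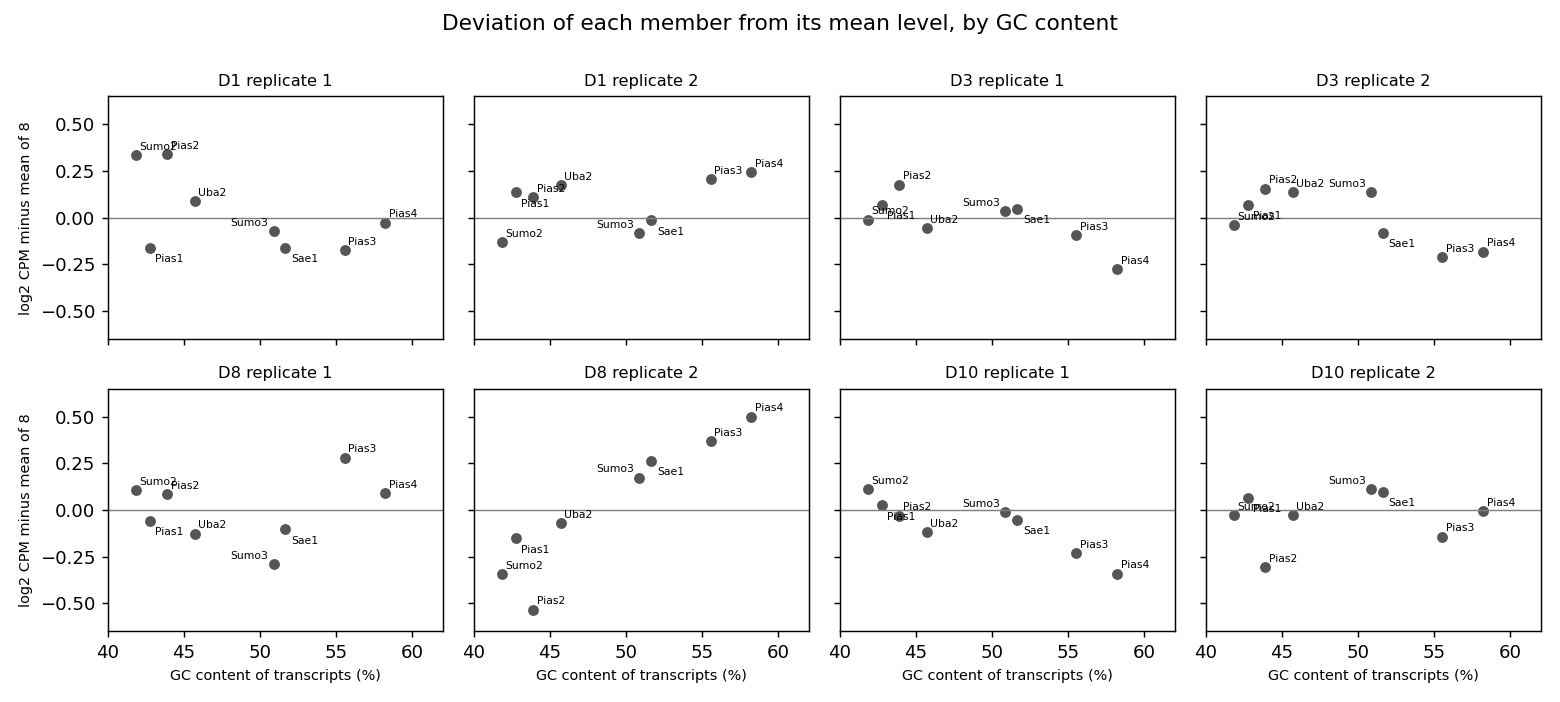
Deviation of each gene from its mean log2 CPM over the 8 libraries (vertical axis) against the GC content of its transcripts in percent (horizontal axis), 1 panel per library. In D8 replicate 2 the GC-rich genes Pias4 and Pias3 lie at 0.50 and 0.37 and the GC-poor genes Sumo2 and Pias2 at -0.34 and -0.53, and in D10 replicate 1 the order runs the other way.

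Before the second exposure, D8 was compared with D1, both without inhibitor. Here 0 of 8 members were called, where 0.177% of all genes were. Pias2 stood at -0.42 ± 0.20 (adjusted p = 0.446) and Uba2 at -0.23 ± 0.13 (adjusted p = 0.488), both with the 2 D8 libraries below the 2 D1 libraries, and Pias3 at 0.29 ± 0.18 (adjusted p = 0.530) with D8 above D1. Of all genes, 41.9% had groups that did not overlap. Pias2 in D8 rested on libraries of 224 and 146 CPM, the second from D8 replicate 2. Without that library Pias2 was at -0.14, and without D8 replicate 1 at -0.76 (adjusted p = 0.0574). Pias3 was at 0.12 without D1 replicate 1 and at 0.50 without D1 replicate 2. Markers of primitive endoderm differed between these controls as well: they summed to 144 and 200 CPM in D1 and 403 and 747 CPM in D8, with 5 of 6 called higher. Those of trophoblast summed to 44.3 and 40.1 CPM in D1 and 69.2 and 170 CPM in D8, with 0 of 3 tested called. Of the fibroblast, mesoderm, neural, embryonic stem cell and 2-cell-like markers, 0 were called. The part of such markers in the member values was not tested.

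The response to the second exposure was compared with the response to the first by their difference in the same fit. None of the 8 members was called, where 0% of all genes were. 575 genes passed an unadjusted p under 0.05, and DESeq2 called 3 genes, none of them a member. The value farthest from 0 was that of Pias3, -0.33 ± 0.26, with a 95% interval from -0.91 to 0.26, and that of Sumo2 was 0.29 ± 0.30. The 2 exposures were thus not shown to differ for any member, and the intervals leave room for differences of either sign.

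Ratios within a library need no scaling between libraries. The ratio of Sumo2 to Sumo3, per kilobase, was 0.442 and 0.322 in D1, 0.323 and 0.295 in D3, 0.438 and 0.232 in D8, and 0.363 and 0.303 in D10. As counted, Sumo3 was above Sumo2 in every library. Of their 50-base windows, 19.2% for Sumo2 and 8.70% for Sumo3 recur in other genes. How reads matching several places were counted is not given, so this ratio is uncertain by the reads that such settings drop or move. The ratio was 0.359 ± 0.101 (SD, n = 4) in control and 0.321 ± 0.0307 (n = 4) in ML-792 libraries, and the groups overlapped (2-sided exact permutation test p = 0.657, adjusted over 6 ratios and shares p = 0.714). The ratio of the E1 subunits, Uba2 to Sae1, was 0.883 and 0.847 in D1, 0.693 and 0.865 in D3, 0.731 and 0.590 in D8, and 0.710 and 0.682 in D10. It was 0.763 ± 0.132 in control and 0.738 ± 0.0859 in ML-792 libraries (exact permutation p = 0.714, adjusted p = 0.714). The smallest p that 4 libraries against 4 allow is 0.0286. With GC and length correction, the ratio of Sumo2 to Sumo3 differed by -0.54 on the log2 scale and the groups no longer overlapped (exact permutation p = 0.0286, adjusted p = 0.171). A single ratio that separates fully cannot pass after adjustment over 6 in this design.

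Of the summed PIAS level, per kilobase, Pias2 made up most in every library, 63.6% to 81.0%. Its share was 73.7% ± 7.32 in control and 77.2% ± 3.52 in ML-792 libraries. That of Pias4 was 14.2% ± 4.76 and 11.0% ± 2.23, that of Pias1 6.30% ± 0.975 and 7.14% ± 0.789, and that of Pias3 5.81% ± 1.75 and 4.69% ± 0.559. None of the 4 shares passed the exact permutation test (adjusted p = 0.686 to 0.714). On the log2 scale the differences were -0.27 for Pias3, -0.33 for Pias4 and 0.07 for Pias2, and GC and length correction turned their signs, to 0.14, 0.12 and -0.03. The highest share of Pias4, 21.0%, and the lowest of Pias2, 63.6%, came from the same library, D8 replicate 2. Without that library the log2 difference of the Pias4 share was -0.12, against -0.33 with it.

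**Figure D4:**
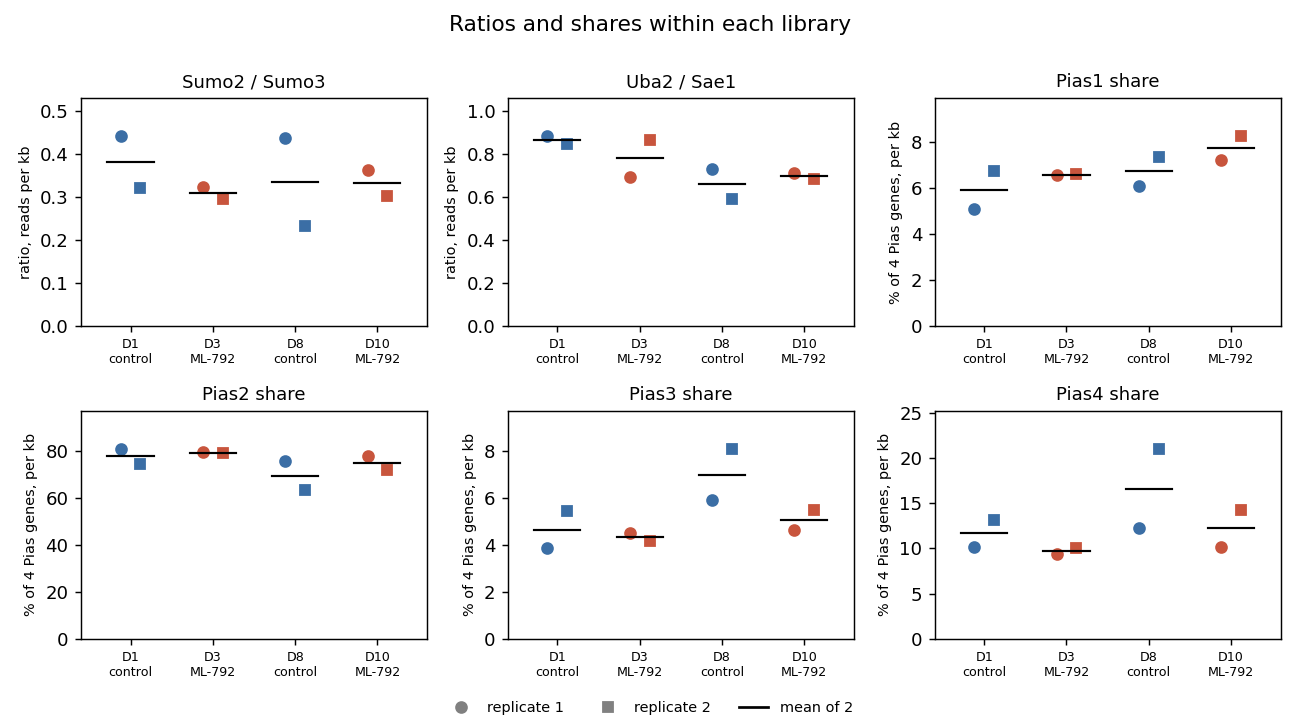
Ratios of Sumo2 to Sumo3 and of Uba2 to Sae1 and the share of each PIAS gene in the PIAS sum (vertical axes, reads per kilobase, from 0) in every library by group (horizontal axis); circles are replicate 1, squares replicate 2, lines the mean of the 2. Pias2 holds 63.6% to 81.0% of the sum in every library, and control and ML-792 libraries overlap in all 6 panels.

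Each member was also set beside the gene whose log2 CPM followed it most closely over the 8 libraries, among 8937 other coding genes. These Pearson correlations are a description of 8 libraries that share depth and the GC trends above, and the best of so many candidates is high by selection. Pias4 was closest to Axin1 (r = 0.995), a scaffold of the complex that degrades beta-catenin, and Pias3 to Rbpms2 (r = 0.988), an RNA-binding protein. Pias2 was closest to Dync1li2 (0.986), a dynein chain, and Pias1 to Usp13 (0.945), a deubiquitinase. For Sae1 the gene was Lztr1 (0.973), for Uba2 Psma8 (0.968), a proteasome subunit, for Sumo2 Dnajc7 (0.961), a co-chaperone, and for Sumo3 Selenow (0.958), a selenoprotein. Among the members themselves, Pias3 and Pias4 moved most alike (r = 0.861), and Sae1 and Pias2 most oppositely (r = -0.887).

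The remaining genes of the pathway were read from fixed lists. Of 13 other SUMO ligases and cofactors, 0 were called in either exposure, where 13% and 16.9% of all genes were, and 1 over all libraries, where 28.7% were. That gene was Rasd2, which had group means of 5.28 to 8.38 CPM and was higher with ML-792 (0.65 ± 0.20, adjusted p = 0.0329). That call was lost without D1 replicate 1 or 2, D3 replicate 1 or 2, D8 replicate 1 or D10 replicate 2 (adjusted p = 0.0594 to 0.0893). With GC and length correction Rasd2 was called in both exposures as well (0.75, adjusted p = 0.0411, and 0.88, adjusted p = 0.0210). The median log2 fold change of these 13 was 0.06 in the first and -0.15 in the second exposure, against 0.00 and 0.03 over all genes.

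SUMO proteases remove SUMO from its targets. Of 9 tested, 1 was called (lower) in D3 against D1, 2 (higher) in D10 against D8, and 3 (1 lower and 2 higher) over all libraries, beside 13%, 16.9% and 28.7% of all genes, so these counts are near the background. Senp3, a nucleolar protease, had group means of 335 CPM in D1 and 209 CPM in D3, and 217 CPM in D8 and 171 CPM in D10. It was lower in the first exposure (-0.68 ± 0.14, adjusted p = 0.0148) and over all libraries (-0.54 ± 0.17, adjusted p = 0.0426), and stood at -0.34 in the second (adjusted p = 0.121), where GC and length correction called it (-0.40, adjusted p = 0.0321). Between the controls, D8 against D1, Senp3 stood at -0.63 ± 0.14 (adjusted p = 0.152), and 5 alternatives called it there too. They were DESeq2 (0.0133), the table without a count filter (0.0170), the GC and length correction (0.0417), the added term for the replicate number (0.0303) and these last 2 together (0.00850). Senp7, which acts on SUMO chains, had group means of 3.50 CPM in D1, 6.62 CPM in D3, 3.61 CPM in D8 and 11.9 CPM in D10. It was higher in the second exposure (1.72 ± 0.27, adjusted p = 0.00515) and over all libraries (1.38 ± 0.26, adjusted p = 0.00377), and stood at 0.91 in the first (adjusted p = 0.0609). Desi2 was higher in the second exposure (0.48 ± 0.13, adjusted p = 0.0328) and over all libraries (0.44 ± 0.09, adjusted p = 0.00531), and GC and length correction ended both calls, at 0.11 and 0.10. The Desi2 call in the second exposure was also lost without any library other than D8 replicate 1 (adjusted p = 0.0626 to 0.164). Both calls of Senp7 held in all 16 alternatives of each, but GC and length correction brought the values to 1.14 and 0.88, and that of the first exposure to 0.48. In the first exposure 4 alternatives called it. They were DESeq2 (adjusted p = 0.0265), the table without a count filter (0.0457), the added term for the replicate number (0.0353) and a fit of the 2 groups (0.0434). The call of Senp3 in D3 against D1 was lost when either library of D1 or of D3 was left out (adjusted p = 0.0731 to 0.119), and its call over all libraries without any library other than those of D8 (adjusted p = 0.0556 to 0.115).

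Of the 4 SUMO-targeted ubiquitin ligases and readers tested, 0 were called in any comparison. Of all genes, 13% and 16.9% were called in the 2 exposures and 28.7% over all libraries, so 0 of 4 is near the background. In D8 against D1 and in the difference between responses, 0.177% and 0% of all genes were called. Enzymes and modifiers of other ubiquitin-like pathways served as a comparison with the E1: of 14 tested, 1 was called lower in D3 against D1, 0 in D10 against D8 and 2 lower over all libraries, beside 13%, 16.9% and 28.7% of all genes. Those were Ufc1, the E2 of the modifier UFM1, at -0.51 ± 0.14 in the first exposure (adjusted p = 0.0412) and -0.38 ± 0.11 over all libraries (adjusted p = 0.0227), and Urm1, a modifier that also supplies sulfur to tRNA, at -0.32 ± 0.11 (adjusted p = 0.0455). The call of Urm1 ended with another scaling (RLE size factors, adjusted p = 0.0504) and with GC and length correction (-0.21), and without any library other than D1 replicate 1 and D8 replicate 1 (adjusted p = 0.0589 to 0.106). The Ufc1 call in the first exposure was lost without a library of D1 or D3 or without D10 replicate 1 (adjusted p = 0.0543 to 0.270), and that over all libraries without D3 replicate 2 (0.0608) or D8 replicate 1 (0.0531).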

How the data were processed

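RNA of 8 libraries was measured. The authors deposited raw counts per Ensembl gene, not normalized. Per the submitters' processing notes, bcl2fastq 2.17.1.14, STAR 2.5.0a, featureCounts and the build mm10 were used; which annotation release, and how strand and multiple matches were handled, is not given in the sources used here. The labels name polyA RNA, while the protocol is for total RNA, stranded, after depletion of rRNA. D1 replicate 2 carries D1 in its title and day 0 in its time tag, and was kept in D1.

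Counts were tested in edgeR 4.0.16 (R 4.3.3) with TMM scaling, filterByExpr (19173 genes) and the quasi-likelihood test, 2-sided, adjusted by Benjamini-Hochberg over all genes and called at 0.05. The 4 groups entered 1 fit with 4 residual degrees of freedom; all ML-792 against all control was a separate fit. The SE is the log2 fold change divided by the square root of F. Log2 CPM used a prior count of 2. Length and GC content come from the GENCODE M21 exons. The code was tested on simulated data. Of 63 simulated 1.5-fold changes, 0 were recovered in D3 against D1, 1 in D10 against D8 and 12 over all libraries. Of 63 simulated 2-fold changes, 20, 18 and 33 were recovered, so small changes are easily missed. The simulation held far fewer changed genes than were called in these data, so its recovery need not carry over.

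The members, lists and tests were chosen with earlier results of these data known. The named genes are all members, the coding gene most like each (mean of at least 10 CPM) and up to 3 called genes of each list; some genes of the pathway are not reported here. Alternatives were RLE factors, DESeq2 1.42.0, other count filters, a replicate block, GC and length correction (splines with 5 degrees of freedom per library), fits of 2 groups and leaving out each library. Intervals of 95% include the spread between libraries.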

Additional observations from a re-analysis of the deposited data

Results flagged for a closer look

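In each of 28 sets of 4 libraries of 1 state, the library at the end of the range was compared with its nearest neighbour. Chance marks about 1 in 20 such sets, and 3 of the 28 were marked.

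Pias1 in D10 replicate 1 was at 36.3 CPM, apart from the other 3 ML-792 libraries at 37.3, 37.4 and 37.3 CPM. The gap is wide only against a very narrow range. The ratio of Uba2 to Sae1 in D3 replicate 2 was 0.865, above the other 3 ML-792 libraries at 0.693, 0.710 and 0.682. It lies inside the range of the controls, 0.590 to 0.883. The share of Pias4 in the PIAS sum in D10 replicate 2 was 14.3%, above the other 3 ML-792 libraries at 9.40%, 10.1% and 10.2%. That library differs from D10 replicate 1 in its GC trend as well (rank correlation 0.0109 against -0.349), and the part of this in the share was not tested.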

How the results depend on the processing

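Of 632 member values under the alternatives, 557 kept the sign reported, 75 took the opposite sign and 23 crossed the threshold. Members called over all libraries, 1 as reported, were 2 with DESeq2 (Pias3 and Pias4), 0 without a count filter (Pias4 at an adjusted p of 0.0523), 3 with GC and length correction and 0 to 2 leaving out 1 library, beside 32.1%, 16.6%, 39.6% and 21.5% to 29.4% of all genes. In D3 against D1 the correction gave 1 called member, beside 24.2% of all genes. In D10 against D8, leaving out 1 library gave log2 fold changes from -0.68 to -0.28 for Pias4. For Pias3, the other member with a strongly negative difference, they ran from -0.58 to -0.47.

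Libraries with the same number deviated together (r = 0.101 to 0.498 between groups), but the labels do not say what a number stands for, so the replicate block is only an alternative. With the replicate block, 2 members were called in D10 against D8, Pias3 (-0.51, adjusted p = 0.0437) and Pias4 (-0.47, adjusted p = 0.0237), where 27.6% of all genes were. The block gave 4187, 5298 and 535 called genes in D3 against D1, D10 against D8 and D8 against D1. With the replicate block and GC and length correction together, 3 members each were called in D3 against D1 and D10 against D8 (Sumo2, Uba2 and Pias2). There 33.5% and 33.9% of all genes were called. Over all libraries 4 members were called (these and Pias1), where 42.3% of all genes were, so these counts are near the background. That fit gave 6429, 6498 and 642 called genes in D3 against D1, D10 against D8 and D8 against D1. In it, Sumo2 (-0.42), Uba2 (-0.28) and Pias2 (-0.34) in D10 against D8 and Pias1 over all libraries (-0.26) took the opposite sign to the reported fit.

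For D3 against D1, 2496 genes were called as reported, 3847 without a count filter, 4639 with the correction, 4035 in a fit of the 2 groups and 363 to 3209 leaving out 1 library. For D10 against D8, 3244 became 4872 with the correction, 1512 in a fit of the 2 groups and 1407 to 4326 leaving out 1 library. For D8 against D1, 34 became 418 with DESeq2, 973 without a filter, 21 with a stricter one, 106 with the correction, 2 in a fit of the 2 groups and 0 to 339 leaving out 1 library. For the difference between responses, 0 became 3 with DESeq2 and 66 without a filter. Without a filter the median over all genes was 0.12 for all ML-792 libraries. The cause of these changes was not tested. Reads per library ran from 291 to 630 for Pias3, the member with the fewest.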

Other observations

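Smt3h2-ps, the X-linked processed pseudogene shown beside Sumo2, was singled out after its values were seen. It held 180 and 224 reads in D1, 168 and 174 in D8, 156 and 289 in D10, and 144 in D3 replicate 1, but 3 reads in D3 replicate 2. Sumo2 itself held 506 and 600 reads in the D3 libraries, and Gm10241, the copy with the same 90 bases, 13 and 17. D3 replicate 2 had 28215299 reads in genes, more than D3 replicate 1 with 23551283, so its total was not the smaller. This difference between replicates of 1 group is reported as a value and was not tested.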
